A study of Mus musculus with 12 samples.

Results

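Resident macrophages of mouse adipose tissue were studied as nuclei that carried transcripts of Mrc1 and F13a1 or of their companion genes. A nucleus was a member when at least 3 UMIs, single captured RNA molecules, fell on Mrc1, F13a1, Cd163, Adgre1, Csf1r and Mctp1 together, with at least 2 of these 6 genes seen. Members were thus chosen by measured UMIs of those genes. That sum also had to exceed the sum of Gpnmb, Atp6v0d2 and St18, genes of lipid-associated macrophages. It had to exceed the sum of Adipoq, Plin1, Acsl1, Flt1, Ptprb, Lama2, Dcn, Skap1 and Pax5, genes of adipocytes, endothelial cells, stromal cells, T cells and B cells. Of 106898 nuclei kept from 12 libraries, 3626 were members (3.39%).

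Macrophages settle in adipose tissue along vessels and between adipocytes, where they clear dead cells, take up lipid and iron and hold blood-borne debris. They depend on the growth factor receptor that Csf1r encodes. Mrc1 codes for the mannose receptor CD206, F13a1 for a subunit of coagulation factor XIII, Cd163 for the receptor of haemoglobin bound to haptoglobin, and Adgre1 for the F4/80 antigen. Long-lived resident cells are known for Lyve1 and Timd4, and cells that come from blood monocytes for Ccr2 and MHC class II. A further state, the lipid-associated macrophage with Trem2, Gpnmb and Lpl, gathers around dying adipocytes.

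The libraries were made from sorted nuclei of male C57BL/6J mice on normal chow, with 1 library in each of 12 groups and no stated number of animals per library. At room temperature (22 °C), mPRAT and iBAT had libraries of 1, 2 and 6 months. The lPRAT libraries were of 2 and 6 months, and iWAT had 1 of 6 months. Mice of 6 months were also kept for 3 days at 4 °C for libraries of mPRAT, iBAT and iWAT. The labels abbreviate the depot names, whose usual readings are perirenal fat of the medial (mPRAT) or lateral (lPRAT) side, brown fat between the shoulder blades (iBAT) and white fat of the groin (iWAT). The titles say 6 months where the characteristics give 16 weeks, while 1 and 2 months are given as 4 and 8 weeks. Each comparison below sets 1 library against 1 other, so there is no replicate error and no test. Intervals are 95% intervals of counting error only.

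The kept nuclei numbered 3279 to 21115 per library, with a median of 880 to 6300 UMIs. Members had a median of 811.5 to 2316 UMIs, below that of the other kept nuclei in all 12 libraries (888 to 6380). Their UMIs summed to 49719 to 2019914 per library, so that 1 UMI was worth 20.1 CPM (UMIs per 1000000 member UMIs) in iBAT at 2 months and 0.495 CPM in lPRAT at 6 months. Cold mPRAT stood apart, since 66.0% of its barcodes with 300 genes exceeded 10% mitochondrial UMIs, against at most 22.1% elsewhere. Between pairs of libraries, 1438 kept barcodes were shared over 66 pairs, 1 of them among members.

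The label was checked against genes that the rule did not use. A list of 22 genes of macrophage identity, among them Ptprc, Cd68, Mertk and Fcgr1, summed to 4937 to 10750 CPM in members. That was 301% of the level in the other kept nuclei of mPRAT at 6 months, a library that also held 193 dendritic nuclei, and up to 9403% elsewhere. Of its genes, Cd14 was at 0 in 3 libraries and Cd68 and Cx3cr1 in 1 each, all with 88 members or fewer. Cd3e of T cells was at 3.77 CPM or less. The 8 markers of T and natural killer cells, Cd3e included, summed to 12.9 to 240 CPM. That was 32.2% to 394% of their level in the other kept nuclei, with a median of 97.0%. The B cell genes Cd79a and Ms4a1 reached 25.5 and 34.0 CPM in mPRAT at 6 months, and Cd79a was at 8.26 CPM or less in the other libraries. Ms4a1 reached 35.8 CPM in iBAT at 1 month, which is 4 UMIs. Bank1, a signalling adaptor known from B cells, was carried throughout at 196 to 1083 CPM.

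Transcripts of adipocytes and stromal cells were present in members at a lower level than in the other kept nuclei. The 14 adipocyte markers summed to 2543 to 9628 CPM, which was 12.3% to 35.8% of the level in the other kept nuclei, and 9 stromal markers to 60.3 to 353 CPM (12.2% to 35.0%). Ucp1, the uncoupling protein of thermogenic adipocytes, had a UMI in 12.5% to 18.9% of iBAT members thinned to 1000 UMIs, against 26.4% to 72.9% of adipocyte nuclei. Thinning drew each nucleus down to 1000 UMIs and left out nuclei with fewer. Kidney tubule markers reached 809 CPM in mPRAT at 1 month, of which Slc12a3 made 752 CPM, and at most 159 CPM elsewhere. Members without any UMI of the 12 excluding genes, the 3 lipid-associated ones included, numbered 1597 (44.0%), and are called members with no excluded UMI below. The dendritic and neutrophil lists stood above the other kept nuclei in all 12 libraries. The 9 dendritic markers summed to 340 to 1043 CPM (246% to 919%), with Ccr7 at 0 in 9 libraries and Xcr1 in 8. The 6 neutrophil markers summed to 20.1 to 183 CPM (1085% to 13640%), with Csf3r reaching 155 CPM and S100a8 at 0 in all 12 libraries. The 8 B cell markers summed to 267 to 1609 CPM, and were below the other kept nuclei in mPRAT at 6 months alone (65.6%). A doublet score marked 214 members (5.90%), with the highest share in iBAT at 1 month (17 of 88, 19.3%). The part of these transcripts in the results below was not tested unless a value is given.

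The 6 genes that chose the members are given as a description. Mrc1 (chr2:14229392-14332057, plus strand, GRCm38) measured 1569 CPM in iBAT at 2 months, a median of 2006 CPM over the libraries and 2981 CPM in cold iWAT. F13a1 (chr13:36867178-37050244, minus strand) ran from 1753 CPM in lPRAT at 6 months through a median of 3509 CPM to 4451 CPM in mPRAT at 1 month. The lPRAT library was low by itself, as the other 11 libraries lay at 2997 CPM or above. Cd163 (chr6:124304656-124330527, plus strand) ran from 205 CPM in lPRAT at 2 months to 842 CPM in iBAT at 1 month. Adgre1 (chr17:57358691-57483527, plus strand) ran from 512 CPM in mPRAT at 1 month to 1281 CPM in lPRAT at 6 months. Both ends of the Cd163 and Adgre1 ranges were thus in young libraries or in lPRAT.

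At the limit of the rule, the 183 members with exactly 3 rule-gene UMIs had 7401 CPM of the macrophage identity list, and the 274 nuclei with exactly 2 had 6429 CPM. All members together had 8004 CPM. Nuclei with 3 or more UMIs of 1 gene alone (231) had 7158 CPM, and the 731 nuclei left out for other cells' or lipid-associated UMIs had 5534 CPM. Nuclei with no UMI of the 6 genes had 478 CPM. By library the nuclei with exactly 2 were above the members in 5 and below in 7, from 11510 against 6345 CPM in cold iWAT (11 nuclei) to 2620 against 7223 CPM in mPRAT at 2 months (22 nuclei). In lPRAT at 6 months they had 5887 against 10750 CPM.

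Among genes outside the rule, Rbpj, the DNA-binding partner of Notch signalling, led the members, from 3340 CPM (lPRAT, 6 months) to 9897 CPM (room-temperature iWAT). Slc9a9, an endosomal sodium-proton exchanger, ran from 1278 to 3484 CPM and Dock2, a Rac activator of blood cells, from 1193 to 3612 CPM. Tbxas1, thromboxane synthase, lay between 488 and 944 CPM. Stab1, a scavenger receptor, lay between 205 and 1182 CPM, and Dab2, an endocytic adaptor, between 684 and 2188 CPM. As a description, 28 of the 30 leading genes were more than 2-fold above the other kept nuclei in all 12 libraries, and Arhgap15 and Ptprc were so in 11.

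**Figure D1:**
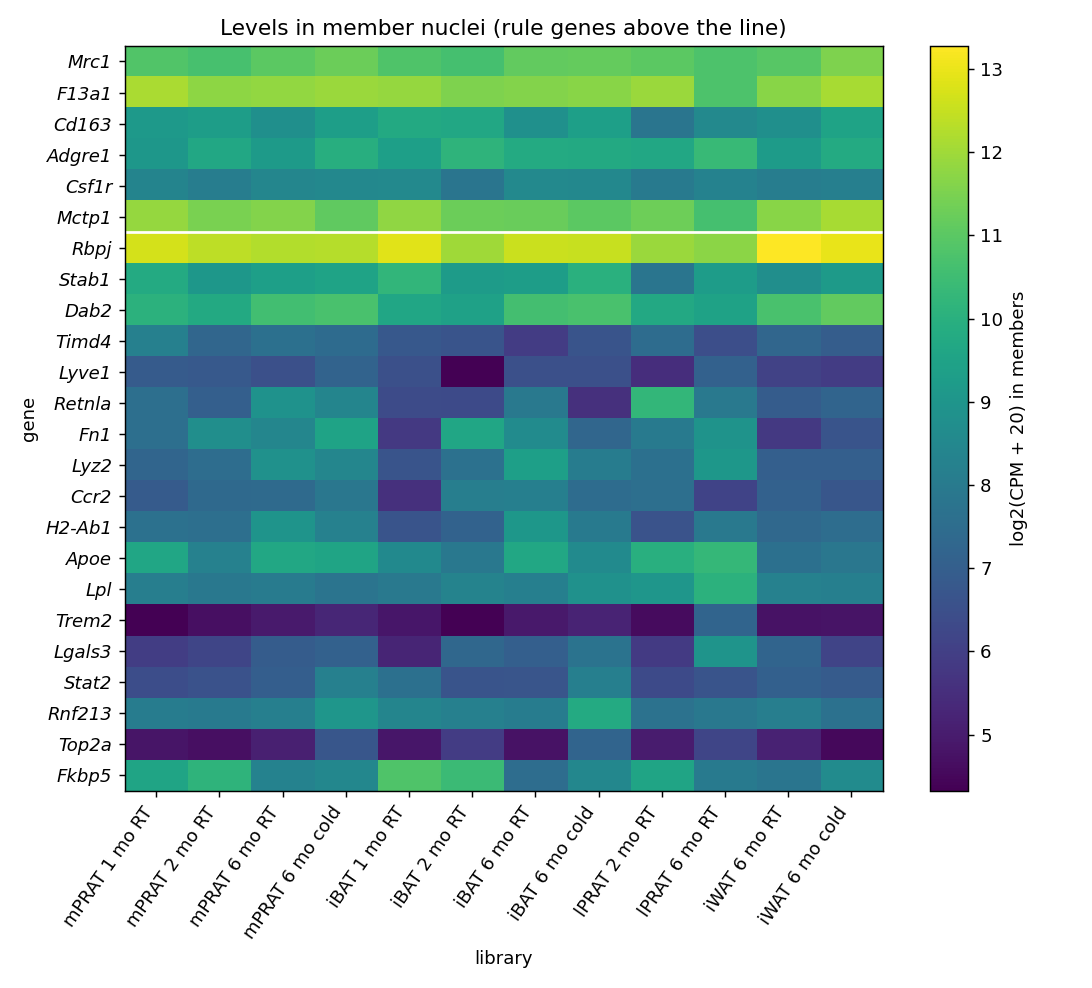
Heat map of log2(CPM + 20) in member nuclei for 24 genes (vertical axis) in 12 libraries (horizontal axis), with the 6 genes of the rule above the line. F13a1 is lowest in lPRAT at 6 months, where Trem2, Lgals3 and Lpl are highest, and Fkbp5 is high in the libraries of 1 and 2 months.

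The share of members among kept nuclei differed by depot. In mPRAT of 1 month it was 1.63% (88 nuclei, 1.31 to 2.01 by the exact Clopper-Pearson interval). It was 1.98% in mPRAT of 2 months and 3.26% in that of 6 months (372 nuclei, 2.94 to 3.60). In iBAT it was 0.772%, 0.248% and 1.09% at these ages, the last from 230 nuclei (0.954 to 1.24). In lPRAT it was 7.08% at 2 months (232 nuclei) and 14.2% at 6 months (844 nuclei, 13.3 to 15.1), and in iWAT 7.07% (585 nuclei). The lPRAT and iWAT libraries thus held the higher shares, and iBAT the lowest at each age. After cold the shares were 6.24% in mPRAT (236 nuclei), 2.47% in iBAT (313 nuclei) and 9.80% in iWAT (485 nuclei). Since the total of nuclei includes every other cell type, a share cannot tell more macrophages from fewer other cells.

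As ratios, cold over room temperature gave 1.92 in mPRAT (1.62 to 2.26), 2.27 in iBAT (1.91 to 2.70) and 1.39 in iWAT (1.23 to 1.57). The mPRAT ratio was 0.885 without the mitochondrial limit, which turned its direction, and 1.16 among adipose cell types alone. Counting only members with no excluded UMI, mPRAT had a ratio of 3.02, iWAT of 2.42 and iBAT of 1.12. In iBAT that count kept 76 of 313 members in cold and 113 of 230 at room temperature. Thinning each nucleus to 1000 UMIs, which leaves out nuclei with fewer, gave 3.76 in iBAT under the full rule. That ratio rests on 249 members of 12444 nuclei in cold and 96 of 18020 at room temperature. Thinning to 500 UMIs, which kept all 12674 and 21115 nuclei, gave 1.96. Between 2 and 6 months the ratio was 1.65 in mPRAT (1.34 to 2.04), 4.39 in iBAT (3.01 to 6.61) and 2.00 in lPRAT (1.73 to 2.32). Counting only members with no excluded UMI, it was 1.02 in lPRAT and 1.07 in mPRAT. That count kept 149 of 232 lPRAT members at 2 months and 277 of 844 at 6 months. In mPRAT it kept 70 of 122 and 139 of 372. A deeper nucleus is more likely to hold an excluded UMI, so this count is not at equal depth. Thinning to 1000 UMIs gave 2.37 in lPRAT and 2.34 in mPRAT, and thinning to 500 UMIs 1.50 and 1.58. The iBAT ratio with age stayed within its counting interval under all 7 alternatives, and rests on 31 members at 2 months.

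**Figure D2:**
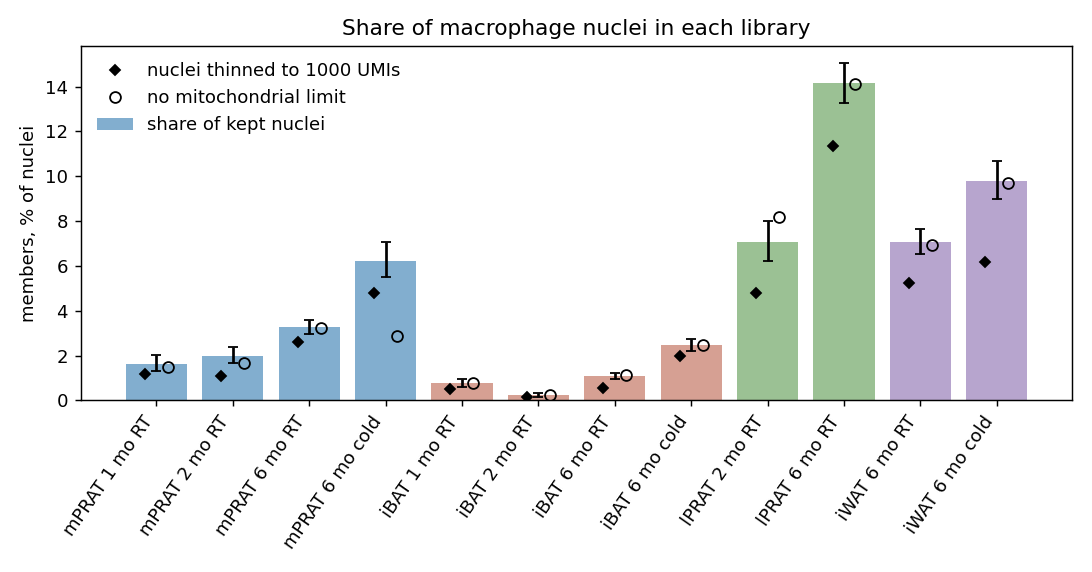
Share of members, in percent of nuclei, in each of 12 libraries, with bars for kept nuclei, exact 95% intervals, diamonds for nuclei thinned to 1000 UMIs and open circles without the mitochondrial limit. lPRAT at 6 months has the highest bar (14.2%) and iBAT at 2 months the lowest (0.248%), and in cold mPRAT the open circle lies far below the bar.

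Within the members, genes of longer-lived and of monocyte-linked macrophages were unevenly spread. Members thinned to 1000 UMIs leave out the members with fewer. At 6 months they were 104 of 230 iBAT members at room temperature and 280 of 313 in cold. In mPRAT they were 323 of 372 (183 of 236 in cold), in lPRAT 656 of 844 and in iWAT 409 of 585 (248 of 485 in cold). The shares below are of these thinned members. They were split by whether a UMI of H2-Aa, H2-Ab1, H2-Eb1 or Cd74, the MHC class II chains and their chaperone, was seen. Among 6-month libraries, such a UMI was seen in 74.3% of mPRAT members (52.5% in cold), 73.1% of iBAT members (59.3% in cold), 51.1% of lPRAT members and 48.2% of iWAT members (48.0% in cold). The background in adipocyte nuclei thinned alike was 8.57% in mPRAT (1.41% in cold), 0.913% in iBAT (1.98% in cold), 1.24% in lPRAT and 1.72% in iWAT (0.573% in cold). The background of mPRAT was thus lower in cold as well, and its part in the mPRAT shares was not tested. Timd4, a receptor for phosphatidylserine on dying cells, was higher in the members without such a UMI in 7 of 7 libraries. In lPRAT it measured 125 CPM without (interval 89.0 to 170, 40 UMIs) and 8.96 CPM with (1.85 to 26.2, 3 UMIs). In iWAT it measured 208 against 102 CPM, and in mPRAT 253 against 91.7 CPM. In iBAT the order rests on 3 UMIs without and 4 with at room temperature, and on 10 and 7 in cold. The iBAT intervals overlap at both temperatures. Lyve1, a hyaluronan receptor, was higher in the members without in 6 of 7 libraries, for example 193 against 30.1 CPM in cold iBAT. Folr2, a folate receptor of resident macrophages, had no such order, being higher without in 3 libraries and with in 4.

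Ccr2, the receptor that brings monocytes into tissue, was higher in the members with an MHC class II UMI in 6 of 7 libraries. In mPRAT it measured 221 CPM with (165 to 289) and 84.3 CPM without (33.9 to 174), and in cold mPRAT 344 against 23.0 CPM. In lPRAT it measured 113 against 18.7 CPM and in cold iBAT 205 against 26.3 CPM. The exception was iBAT at room temperature, with 250 CPM with and 429 CPM without, where the latter rests on 28 nuclei and 12 UMIs. Cx3cr1, the fractalkine receptor, was higher with in 3 of 7. Among the genes of the rule, Mrc1 was higher with in 6 of 7 libraries and Adgre1 in 5 of 7, while F13a1 was higher without in 5 of 7. Cd163, Csf1r and Mctp1 were split 4 to 3. The split was taken from the same nuclei as the levels, so it is a description.

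Members were next set beside the neighbouring immune nuclei. In lPRAT at 6 months, 428 lipid-associated nuclei were found by Gpnmb, Atp6v0d2 and St18. Of 8087 genes measured, 214 were at least 2-fold higher in members and 100 lower. F13a1, part of the rule, was 1753 CPM in members and 26 CPM in lipid-associated nuclei. Outside the rule, Retnla, a product of alternatively activated macrophages, was 225 against 5 CPM, Fcna, a ficolin of innate immunity, 166 against 2.5 CPM and Lyve1 117 against 3 CPM. Mmp12, the macrophage elastase, was 144 against 623 CPM and Lgals3, galectin-3, 480 against 1709 CPM. In mPRAT at 6 months, the 193 dendritic nuclei were found by Flt3, Cd209a, Wdfy4, Xcr1, Clec9a and Zbtb46. Of 6348 genes, 573 were higher in members and 513 lower. Maf, a transcription factor of resident macrophages, was 974 CPM in members and 23 CPM in dendritic nuclei. Clec9a of cross-presenting dendritic cells was 33 against 451 CPM. It helped to find the dendritic nuclei, so its level is a description.

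Cold exposure was compared depot by depot, to ask how the response differs between depots. A gene counted as past the fold when its log2 ratio of CPM, with 20 CPM added to both, was at least 1 in size. Only genes with at least 50 UMIs over both libraries were measured. In iBAT 139 genes were higher and 86 lower of 4417 (5.09%), in mPRAT 102 and 111 of 5418 (3.93%) and in iWAT 34 and 195 of 5690 (4.02%). As a description, genes with at least 2 times the level of the other kept nuclei in the mean of both libraries, a set added after the counts were seen, were counted apart. Of 1400 such genes in iBAT 6.14% were higher and 2.57% lower, of 1306 in mPRAT 2.91% and 1.68%, and of 1324 in iWAT 1.96% and 0.831%. The genes with the highest ratios are named below from those with at least 2 times the level of the other kept nuclei in the library where they were higher. Of 4158 genes measured in all 3 depots, 0 were past the fold upward in each. Macrod2 alone was past it downward in each, and was lower in members than in the other kept nuclei of every one of these libraries.

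In cold iBAT, genes of the interferon response stood higher in members. Of 12 measured genes among 19 listed, 10 were past the fold upward, against 3.15% of all genes, and none was below 0. Their median log2 ratio was 1.41, against 0.06 for all genes, and it lay between 1.26 and 1.52 under the 8 alternatives run for list medians. Rnf213, a large ubiquitin ligase, went from 252 CPM (70 UMIs) to 867 CPM (716 UMIs) and was seen in 51 of 230 members at room temperature and 203 of 313 in cold. Parp14, an ADP-ribosyltransferase, went from 133 to 598 CPM. The UMIs of Rnf213 in cold thus did not rest on a few nuclei. Cold members of iBAT were deeper, with a median of 2101 against 928.5 UMIs, and had a median of 0.500% against 1.55% mitochondrial UMIs, so these counts of nuclei are not at equal depth. The part of this difference in RNA quality was not tested.

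Sensors of viral RNA and effectors were among the same 10 genes. Stat2, a transducer of interferon signals, went from 82.8 to 274 CPM and Oas2, which makes an activator of RNA decay, from 112 to 329 CPM. Ifih1 and Ddx58, which code for MDA5 and RIG-I, went from 57.6 to 157 CPM and from 54.0 to 137 CPM. Eif2ak2, the kinase PKR, went from 64.8 to 185 CPM, Trim30a from 198 to 558 CPM and the nucleic acid sensor Zbp1 from 1 UMI (3.60 CPM) to 62 UMIs (75.1 CPM). In the other kept nuclei of the same libraries, Stat2 went from 27.7 to 66.1 CPM, while Rnf213 went from 60.4 to 57.9 CPM and Parp14 from 10.7 to 15.9 CPM. Stat2 was thus also higher in the other nuclei, and Rnf213 was not.

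Outside the list, 4 of the 8 genes named for the highest ratios in cold iBAT are known to respond to interferon, and were picked out after their values were seen. The other 4 were Kcnq5, Top2a, Sdk1 and Cenpp. Iigp1, an interferon-inducible GTPase that acts on intracellular parasites, went from 14.4 CPM (4 UMIs) to 222 CPM (183 UMIs in 86 members), a ratio of 15.4 (5.91 to 57.1), and in other kept nuclei from 5.02 to 66.4 CPM. Nlrc5, an activator of MHC class I genes, went from 54.0 to 357 CPM and was seen in 143 of 313 members. Irgm1, a related GTPase, went from 7.20 CPM (2 UMIs) to 108 CPM, and Ifi213 from 43.2 to 254 CPM. In other kept nuclei Nlrc5 was 42.1 and 93.1 CPM, Irgm1 5.94 and 8.62 CPM and Ifi213 0.644 and 1.52 CPM. With each gene's 2 top members of each library left out, the log2 ratios were 2.30 to 3.19. That step also removed UMIs at room temperature, where Irgm1 had 2 and Iigp1 4. A turn of direction was thus hardly possible, and these ratios are a description.

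As a share of nuclei, members thinned to 1000 UMIs with at least 2 UMIs of the interferon list were 28.9% in iBAT at room temperature (20.4 to 38.6) and 63.6% in cold (57.6 to 69.2). These are shares of the 104 and 280 members with at least 1000 UMIs. The background in adipocyte nuclei was 2.70% and 5.32%. In mPRAT the member share was 33.8% at room temperature and 57.9% in cold, with 7.25% and 11.5% in adipocyte nuclei. In iWAT it was 45.0% and 30.7%, with 9.14% and 5.01% in adipocyte nuclei. Without thinning the member shares were 31.3% and 82.4% in iBAT, 62.9% and 71.6% in mPRAT and 56.8% and 35.7% in iWAT. Cold iBAT and cold mPRAT therefore lay above their room-temperature libraries and cold iWAT below. Members of mPRAT had a median of 0.187% mitochondrial UMIs at room temperature and 2.03% in cold. The part of this difference in the cold results of mPRAT was not tested. By gene, 1 of 11 was past the fold upward in mPRAT, against 1.88% of all genes (Stat2, 108 to 276 CPM, median of the list 0.58). In iWAT 0 of 11 were, against 0.598% (median -0.35).

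The promoters of these genes are shown because these genes were past the fold together. The sequences run from 250 bases before to 50 after the annotated start, from RefSeq on GRCm38.p6. Capitals mark matches on either strand to GAAANNGAAA, the core of the interferon-stimulated response element. Stat2 lies at chr10:128270248-128270547 on the plus strand, Ifih1 at chr2:62646206-62646505 on the minus strand, Eif2ak2 at chr17:78882523-78882822 on the minus strand and Irgm1 at chr11:48871371-48871670 on the minus strand.
Stat2: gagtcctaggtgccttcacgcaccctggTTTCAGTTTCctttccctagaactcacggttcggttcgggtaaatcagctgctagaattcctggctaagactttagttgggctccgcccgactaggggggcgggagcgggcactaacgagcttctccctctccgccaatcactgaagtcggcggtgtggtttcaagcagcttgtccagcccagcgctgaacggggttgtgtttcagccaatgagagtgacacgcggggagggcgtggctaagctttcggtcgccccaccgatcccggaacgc
Ifih1: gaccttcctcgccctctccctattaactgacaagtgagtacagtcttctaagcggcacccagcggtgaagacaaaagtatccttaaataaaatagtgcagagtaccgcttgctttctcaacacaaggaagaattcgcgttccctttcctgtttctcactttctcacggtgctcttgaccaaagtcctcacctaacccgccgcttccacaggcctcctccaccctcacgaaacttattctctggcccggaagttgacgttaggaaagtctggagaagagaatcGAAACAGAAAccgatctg
Eif2ak2: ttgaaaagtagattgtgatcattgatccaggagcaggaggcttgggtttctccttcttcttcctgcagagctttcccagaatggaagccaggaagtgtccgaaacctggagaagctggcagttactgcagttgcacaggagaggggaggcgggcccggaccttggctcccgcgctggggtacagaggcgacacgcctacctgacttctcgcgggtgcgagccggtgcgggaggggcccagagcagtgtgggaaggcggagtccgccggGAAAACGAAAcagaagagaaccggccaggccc
Irgm1: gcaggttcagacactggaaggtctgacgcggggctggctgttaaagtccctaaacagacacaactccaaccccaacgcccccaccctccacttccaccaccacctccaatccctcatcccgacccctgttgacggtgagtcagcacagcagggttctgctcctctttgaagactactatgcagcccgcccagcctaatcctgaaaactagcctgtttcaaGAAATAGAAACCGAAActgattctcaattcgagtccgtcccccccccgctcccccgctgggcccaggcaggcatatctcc

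Stat2 holds the match on the opposite strand, as TTTCAGTTTC, and Ifih1 and Eif2ak2 hold it as GAAACAGAAA and GAAAACGAAA. Irgm1 holds 2 overlapping matches, GAAATAGAAA and GAAACCGAAA. Of the 10 interferon genes past the fold in cold iBAT, 6 had a promoter in the table and 5 of these matched, the exception being Rnf213. Among all 32851 promoters 3.44% matched, and counted by gene 3.99% of 27025. Listed genes outside those 10 matched as well, namely Ifit1, Ifit3, Isg15, Oas3 and Rsad2, while Ifit2, Irf7, Irf9 and Xaf1 did not. The match is thus not particular to the genes past the fold. The motif and the genes shown were chosen after the levels were known, so the matches are a description and say nothing of binding.

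**Figure D3:**
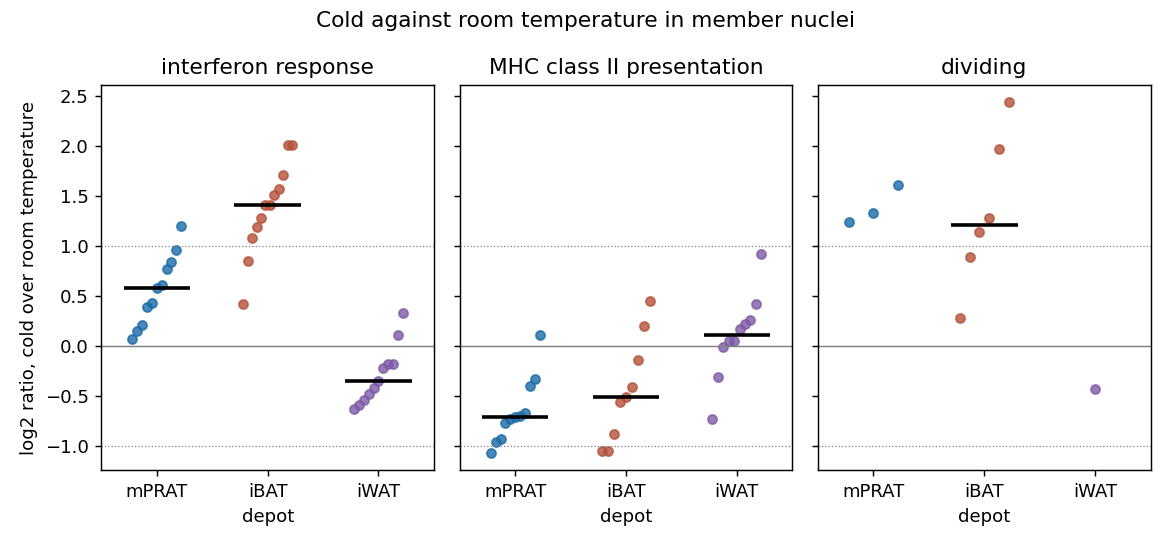
Log2 ratio of cold over room temperature in member nuclei, with 20 CPM added, for the measured genes of 3 lists (1 point per gene, black line the median where at least 4 genes were measured, dotted lines at 1 and -1) in 3 depots. Interferon genes lie above 1 for 10 of 12 genes in iBAT and below 0 for 9 of 11 in iWAT, and MHC class II genes lie mostly below 0 in mPRAT and iBAT.

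Genes of cell division were also higher in cold members of iBAT and mPRAT. In iBAT 4 of 6 measured genes were past the fold, against 3.15% of all genes, with a median log2 ratio of 1.21. Top2a, the topoisomerase of dividing cells, went from 2 UMIs (7.20 CPM) to 105 UMIs (127 CPM) in 32 of 313 members. In mPRAT 3 of 3 were past the fold, against 1.88% of all genes: Mki67, a proliferation marker, went from 18.9 to 77.6 CPM, Top2a from 14.2 to 84.1 CPM and Diaph3, an actin nucleator used in cell division, from 34.0 to 108 CPM. The Top2a nuclei largely held the other genes too. The 32 in cold iBAT had 79.3% of Mki67, 81.7% of Kif15, 87.0% of Knl1 and 67.1% of Diaph3 UMIs, beside 13.45% of all member UMIs. The 13 in cold mPRAT had 63.9%, 85.7%, 72.0% and 64.0% in that order, beside 7.935% of all member UMIs. At room temperature, thinned members with at least 2 UMIs of the dividing list were 1.92% in iBAT, 2.17% in mPRAT and 2.20% in iWAT. After cold they were 11.4%, 7.10% and 1.21% in the same order. In other kept nuclei Top2a was at 2.50 CPM in cold iBAT, and in mPRAT it went from 29.7 to 4.75 CPM.

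MHC class II genes had medians below 0 in cold members of these same depots, with few genes past the fold. In iBAT 2 of 9 measured genes were past the fold downward, H2-Aa (468 to 216 CPM) and H2-Ab1 (515 to 239 CPM), against 1.95% of all genes, with a list median of -0.51. In mPRAT the median was -0.71 with 10 of 11 genes below 0, H2-Ab1 going from 482 to 287 CPM and Cd74 from 851 to 504 CPM. Cd83, a marker of activated presenting cells, alone passed the fold there, against 2.05% of all genes. In the other kept nuclei of mPRAT H2-Ab1 went from 102 to 6.10 CPM and Cd74 from 254 to 9.63 CPM. In mPRAT the B cell and dendritic markers moved the same way, with 4 of 4 and 5 of 5 measured genes below 0 and Flt3 going from 52.8 to 12.9 CPM, and their part in the result was not tested. In iWAT the median was 0.11 and 0 of 10 genes passed, against 0.598% of all genes upward and 3.43% downward.

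Other functions in cold iBAT members moved in both directions. Retnla went from 223 CPM (62 UMIs in 19 members) to 27.8 CPM and Lyz2, lysozyme, from 641 to 252 CPM. Apoe, a lipid carrier, went from 799 to 369 CPM and Clec10a, a lectin, from 374 to 154 CPM. C1qa of complement went from 320 to 140 CPM. It was the 1 of 9 complement genes past the fold downward, against 1.95% of all genes, with a list median of 0.14. Fn1, fibronectin, went from 382 to 136 CPM, and 16 of 230 members held the room-temperature UMIs. Its log2 ratio of -1.37 was -0.26 under the rule of 5 UMIs and 3 genes, so that it was no longer past the fold. Slc40a1, the iron exporter ferroportin, went from 14.4 CPM (4 UMIs) to 125 CPM and Siglec1, the sialoadhesin of interferon-exposed macrophages, from 43.2 to 161 CPM. Abcg1, a cholesterol exporter, went from 43.2 to 134 CPM. Plin2, a lipid droplet protein, went from 205 to 432 CPM in members and from 547 to 1111 CPM in other kept nuclei. Among the genes named for the lowest ratios, Cmss1 (4236 to 564 CPM) had a log2 ratio of -2.865, AY036118 -2.706, Retnla -2.345 and Lars2 -2.068. Cmss1, AY036118 and Lars2 were also lower in the other kept nuclei, Cmss1 there going from 1862 to 319 CPM.

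In cold mPRAT, a small set of members was marked by a UMI of Ltbp1, which is among the 8 genes named for the highest ratios. This set held most UMIs of Tgfb2, Alox15 and Itga6, which are also among those 8 genes. Ltbp1, which stores TGF-beta in the matrix, went from 98.1 to 442 CPM and was seen in 16 of 372 members at room temperature and 20 of 236 in cold, which is 4.301% (2.48 to 6.89) and 8.48% (5.25 to 12.8). In cold those 20 members held 98.6% of the UMIs of Alox15, a lipoxygenase, 97.8% of Tgfb2 and 88.2% of the integrin gene Itga6. They also held 68.0% of Fn1, 53.1% of Itgam, the integrin CD11b, and 81.3% of the 16 UMIs of Gata6, but 13.8% of all member UMIs. Alox15, Fn1 and Gata6 are known from macrophages of the peritoneal cavity. The same members had 844 CPM of F13a1, against 4337 CPM in the other cold mPRAT members, and 422 against 113 CPM of Timd4. At room temperature the 16 Ltbp1 members held 100% of 24 Alox15 UMIs and had 1554 against 3739 CPM of F13a1. They held 77.8% of Tgfb2 (9 UMIs) and 64.7% of Itga6 UMIs (51), beside 7.16% of all member UMIs. Of other genes they held 32.1% of Fn1 and 35.0% of Gata6 UMIs and 27 of 225 Itgam UMIs, and had 171 against 178 CPM of Timd4. The selection by Ltbp1 was made after its level was seen. Under the rule of 5 UMIs and 3 genes the log2 ratio of Alox15 was 1.05 in place of 2.02. In cold mPRAT 83 nuclei that met the gene rule exceeded the mitochondrial limit and are not among the 236 members.

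Over all members of mPRAT, Itgam went from 212 to 524 CPM, and over the members without Ltbp1 from 201 to 285 CPM. Ftl1, ferritin light chain, went from 102 to 256 CPM, with 6.72% of its cold UMIs in the Ltbp1 members. Upk3a, a uroplakin, had the highest ratio (3 UMIs, 2.83 CPM, to 73 UMIs in 62 members, 157 CPM) and went from 2.64 to 73.0 CPM in the other kept nuclei. Erc2 and Il1rapl2 rested on few nuclei, as 2 members held 83.6% of Erc2 and 1 member all 41 Il1rapl2 UMIs in cold, and Il1rapl2 was lower without them. Among the lowest, Asic2 had 504 UMIs at room temperature, 90.3% of them in 2 members, and 0 in cold, which allows up to 6.46 CPM. Dscam went from 257 to 2.16 CPM, Adam23 from 186 to 4.31 CPM and Zfp366 from 82.1 CPM to 0 UMIs. The 14 members with Adam23 at room temperature held 93.8% of Dscam, 90.8% of Zfp366 and 80.4% of Flt3 UMIs but 0.658% of F13a1 UMIs. They held 43.65% of Wdfy4, 15.57% of Adgrl3, 7.362% of Ttn and 0% of Asic2 UMIs, beside 8.711% of all member UMIs. Under the rule of 5 UMIs and 3 genes the log2 ratios were -1.61 in place of -3.08 for Adam23 and -1.64 in place of -2.35 for Zfp366. Flt3 and Zfp366 are known from dendritic cells, of which that library held 193 nuclei by marker rule.

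In cold iWAT, 195 genes stood lower (3.43%) and 34 higher (0.598%), while among the 1324 genes above the other nuclei over both libraries 11 stood lower and 26 higher. Cadm1, an adhesion molecule, went from 235 to 10.9 CPM, and 53 of 585 members held the room-temperature UMIs. Arhgap22, a regulator of small GTPases, went from 165 to 40.5 CPM, Myo1e, a myosin of phagocytosis, from 283 to 108 CPM and Lgals3 from 129 to 51.5 CPM. Among members with no excluded UMI the log2 ratio of Myo1e was -0.63 in place of -1.25, which is not past the fold. Hmox1, the haem-degrading enzyme, went from 118 to 40.5 CPM. Arhgap22 and Lgals3 were lower in the other kept nuclei too, at 46.3 to 14.6 CPM and 30.3 to 8.97 CPM. Higher were Selenop, the selenium carrier (234 to 586 CPM), Hpgd, which inactivates prostaglandins (81.9 to 240 CPM), Mamdc2 (26.8 to 117 CPM) and Adgre4, a relative of F4/80 (60.0 to 178 CPM). Glucocorticoid-responsive genes had a median log2 ratio of 0.66 with 0 of 8 past the fold, Fkbp5 going from 203 to 384 CPM. Cd163, a gene of the rule, is on this list and went from 421.5 to 704.8 CPM, so the median is a description. Adipocyte markers in members went from 27.5% to 12.96% of their level in other kept nuclei, with 4 of 11 past the fold downward, and their part in these counts was not tested.

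Age was followed at room temperature in mPRAT, iBAT and lPRAT. The mPRAT and iBAT libraries of 6 months are the same that served as controls of the cold comparisons, so the comparisons are not independent. In mPRAT, 266 genes were higher and 55 lower at 6 than at 2 months of 4651 (6.90%), and TMM scaling changed the higher share of these calls from 82.9% to 69.1% while it lowered the median of all genes by 0.11. In lPRAT, 616 were higher and 271 lower of 6689 (13.3%), and TMM scaling changed the higher share from 69.4% to 55.2% and lowered the median by 0.14. In iBAT the 31 members at 2 months were too few, and 6 over 1 months was used in their place, a comparison chosen after the counts were seen. It had 115 higher and 49 lower of 1837 (8.93%), with the higher share going from 70.1% to 60.0% under TMM scaling. Of the 88 iBAT members at 1 month, the doublet score marked 17. Of genes above the other kept nuclei over both libraries, 6.38% of 1113 were higher and 1.71% lower in mPRAT, 19.5% and 4.24% of 1510 in lPRAT and 10.8% and 2.97% of 639 in iBAT.

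H2-Ab1 and Cd74 were past the fold upward with age in each of the 3 depots. In mPRAT 5 of 11 measured genes were past the fold at 6 over 2 months, against 5.72% of all genes, with 6 of 11 above 0. H2-Aa, a chain of the antigen-binding molecule, measured 248, 212 and 552 CPM at 1, 2 and 6 months and H2-Ab1 182, 171 and 482 CPM. In iBAT H2-Ab1 measured 80.6 CPM (9 UMIs), 121 CPM and 515 CPM, and 4 of 6 genes were past the fold at 6 over 1 months, against 6.26% of all genes. Members of iBAT had a median of 0.3% mitochondrial UMIs at 1 month and 1.55% at 6 months, and the part of this difference was not tested. In lPRAT H2-Ab1 measured 77.9 CPM at 2 and 226 CPM at 6 months, and 2 of 10 genes passed, against 9.21% of all genes. In mPRAT 3 of 5 measured dendritic markers were past the fold upward as well, Flt3 going from 0 UMIs, which allows up to 17.7 CPM, to 52.8 CPM. The other kept nuclei of mPRAT went from 1.05 to 102 CPM of H2-Ab1, and the part of these cells in the result was not tested. The list medians were 0.36 in mPRAT, 0.37 in lPRAT and 1.53 in iBAT. Over the 8 alternatives run for list medians they lay between 0.16 and 1.17, between 0.18 and 0.97 and between 0.52 and 1.75 in the same order, the highest in mPRAT and lPRAT being among members with no excluded UMI.

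Of the glucocorticoid-responsive genes measured, 2 of 6 in mPRAT, 3 of 6 in iBAT and 3 of 9 in lPRAT were past the fold downward at 6 months and none upward. The downward background was 1.18%, 2.67% and 4.05% of all genes. The list medians were -0.57, -1.36 and 0.11, and that of lPRAT was -0.51 among members with no excluded UMI. Over the 8 alternatives they lay between -0.70 and -0.35 in mPRAT, -1.55 and -0.75 in iBAT and -0.51 and 0.54 in lPRAT. Cd163, a gene of the rule, is on this list, so the list's counts and medians are a description. Cd163 went from 613 to 417 CPM in mPRAT, from 842 to 428 CPM in iBAT and from 205 to 351.5 CPM in lPRAT. Fkbp5, a chaperone that glucocorticoids induce, measured 735, 1108 and 294 CPM at 1, 2 and 6 months in mPRAT, 1773, 1368 and 162 CPM in iBAT, and 734 and 230 CPM at 2 and 6 months in lPRAT. Zbtb16, a zinc finger repressor, measured 991, 548 and 215 CPM, then 1576, 885 and 198 CPM, and 558 and 218 CPM in the same order. Tsc22d3, the leucine zipper protein GILZ, measured 322, 253 and 159 CPM, 591, 362 and 158 CPM, and 353 and 152 CPM. Every 6-month library at room temperature thus lay below the younger libraries of its depot for these 3 genes. With 1 library per age, age and library cannot be told apart. Fkbp5 was lower in the other kept nuclei as well, from 356 to 122 CPM in mPRAT between 2 and 6 months and from 451 to 24.6 CPM in iBAT between 1 and 6 months.

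**Figure D4:**
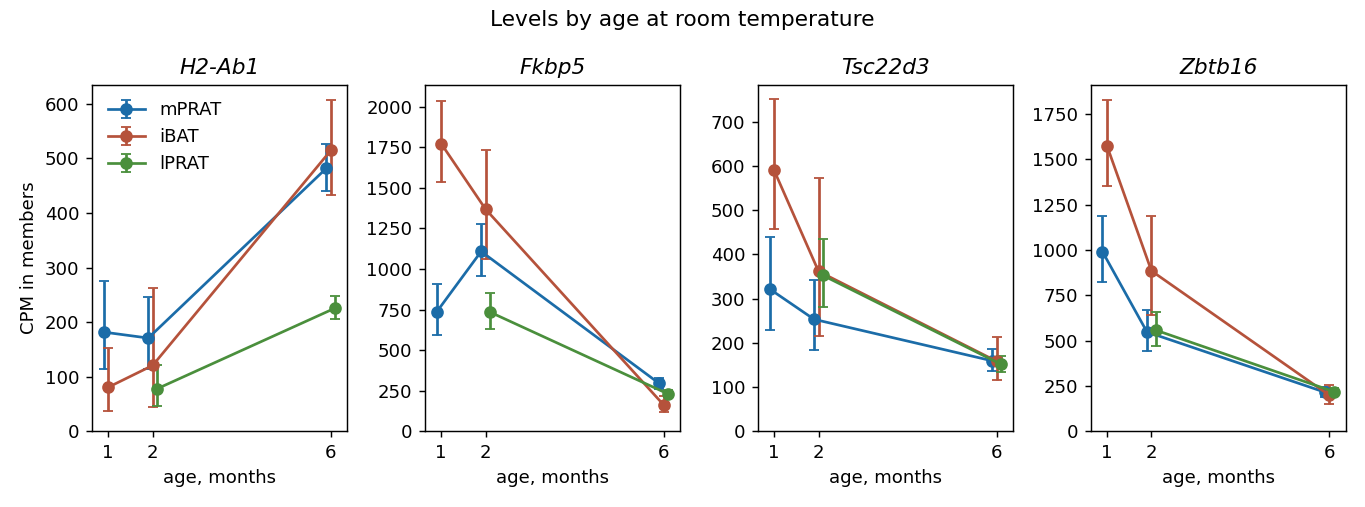
CPM in members by age in months for H2-Ab1, Fkbp5, Tsc22d3 and Zbtb16 in mPRAT, iBAT and lPRAT at room temperature, 1 library per point, with exact Poisson 95% intervals. H2-Ab1 is highest at 6 months in each depot (482, 515 and 226 CPM), and the other 3 genes are lowest there.

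Several resident and monocyte-linked genes were past the fold with age, and some of them in opposite directions in different depots, a difference that was not tested. In mPRAT, 4 of 15 genes of the resident perivascular list were past the fold upward at 6 over 2 months, against 5.72% of all genes: Cd209b and Cd209d, which are lectins (41.2 to 168 and 11.8 to 55.7 CPM), Gas6, a bridge to dying cells (70.7 to 191 CPM), and Selenop (242 to 527 CPM). The list median was 0.81. C1qa went from 88.4 to 274 CPM and Retnla from 112 to 452 CPM, while in lPRAT C1qa went from 410 to 177 CPM and Retnla from 1189 to 225 CPM. In iBAT between 1 and 6 months, Ccr2 went from 3 UMIs (26.9 CPM) to 75 UMIs (270 CPM), a ratio of 10.1 (3.31 to 49.8), and Lyz2 from 9 UMIs (80.6 CPM) to 641 CPM. Fn1 there went from 4 UMIs (35.8 CPM) to 382 CPM. The part of the higher mitochondrial share of iBAT members at 6 months, given above, was not tested here either. Kcnip4, the lowest ratio in mPRAT, rested on 2 members with 97.8% of its UMIs at 2 months.

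Between 2 and 6 months the lPRAT members differed in genes of lipid handling. Of 17 measured lipid-associated genes, 9 were past the fold upward at 6 over 2 months, against 9.21% of all genes, with a median of 1.05. That median lay between 0.861 and 1.785 under the 8 alternatives run for list medians. Trem2, a lipid receptor, went from 1 UMI (4.10 CPM) to 256 UMIs (127 CPM), Lgals3 from 36.9 to 480 CPM and Ctsd, a lysosomal protease, from 11 to 808 UMIs, a log2 ratio of 2.69. Lipa, the acid lipase of lysosomes, went from 20.5 to 303 CPM, Plin2 from 131 to 817 CPM, the fatty acid transporter Cd36 from 677 to 2136 CPM and lipoprotein lipase Lpl from 504 to 1064 CPM. Mmp12 had 0 UMIs in the younger library (up to 12.3 CPM is allowed by that count) and 144 CPM in the older. In the other kept nuclei, which include the lipid-associated class, Trem2 went from 2.04 to 21.7 CPM and Lgals3 from 18.9 to 152 CPM. Fabp4, a fatty acid carrier that adipocytes make, went the other way (537 to 243 CPM). Genes that excluded nuclei, Atp6v0d2 (20.5 to 575 CPM) and St18 (16.4 to 709 CPM), were also higher in members. Both are part of the rule, so their levels are a description. At 6 months 300 of 844 members held a UMI of Atp6v0d2 and 308 a UMI of St18. F13a1 was seen in 58.7% of members at 6 months and 87.1% at 2 months. The part of nuclei close to the lipid-associated class in these results was not tested. Among members with no excluded UMI, which lack Gpnmb, Atp6v0d2 and St18 by construction, the median of the lipid-associated list was 0.88 and the log2 ratio of Lgals3 went from 3.13 to 1.27.

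With 20 CPM added, Myo1e and Cadm1 had the highest log2 ratios among the genes named in lPRAT, apart from the genes of the rule. Myo1e went from 8 UMIs (32.8 CPM) to 2423 UMIs (1200.0 CPM), in 360 of 844 members, a ratio of 36.6 (18.5 to 84.8). Cadm1 went from 3 UMIs to 797 UMIs in 191 members and Arhgap25 from 53.3 to 678 CPM. In the other kept nuclei Myo1e went from 51.0 to 240 CPM. Among members with no excluded UMI the log2 ratios were smaller, at 2.14 in place of 4.53 for Myo1e, 1.80 in place of 3.68 for Cadm1 and 1.50 in place of 3.25 for Arhgap25. Of 20 measured macrophage identity genes, 10 were past the fold upward, against 9.21% of all genes, among them Ptprc, the leukocyte antigen CD45 (476 to 1107 CPM), and Ctss, a lysosomal protease (152 to 393 CPM). Of the cell division genes, 5 of 9 were past the fold upward against the same 9.21%, with a median of 1.04 and Mki67 going from 0 to 76 UMIs. As a share of members thinned to 1000 UMIs, those with at least 2 UMIs of the dividing list were 3.85% at 2 months (interval up to 10.8) and 4.57% at 6 months (3.11 to 6.46), so a difference in share was not detectable at this depth. Without thinning they were 2.59% and 8.18%. Members with at least 1000 UMIs were 78 of 232 at 2 months and 656 of 844 at 6 months. Median UMIs per member were 811.5 at 2 and 1829 at 6 months in lPRAT, and 110 and 45 nuclei that met the gene rule exceeded the mitochondrial limit. Kept lPRAT members had a median of 2.53% mitochondrial UMIs at 2 months and 0.273% at 6 months. The part of this difference in the lPRAT results with age was not tested.

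Resident genes in lPRAT were divided. Lyve1 (24.6 to 117 CPM), Folr2 (32.8 to 94.1 CPM), Fcna (28.7 to 166 CPM), Stab1 (205 to 600 CPM) and Vsig4, a complement receptor (1 UMI to 65.8 CPM), were past the fold upward, against 9.21% of all genes. Timd4 (160 to 69.3 CPM), Cd209d and Colec12, a collectin (287 to 68.3 CPM), were past it downward, against 4.05%. The median of the 16 measured genes was -0.06, or 0.78 among members with no excluded UMI. Retnla went from 1189 to 225 CPM, a log2 ratio of -2.31 that was -1.21 among members with no excluded UMI. Ccr2 went from 172 to 49.5 CPM and Mgl2, a lectin of alternative activation, from 127 to 38.1 CPM. Adipocyte markers in members moved with these results, with 6 of 11 past the fold downward against the same 4.05%, and their part was not tested.

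**Figure D5:**
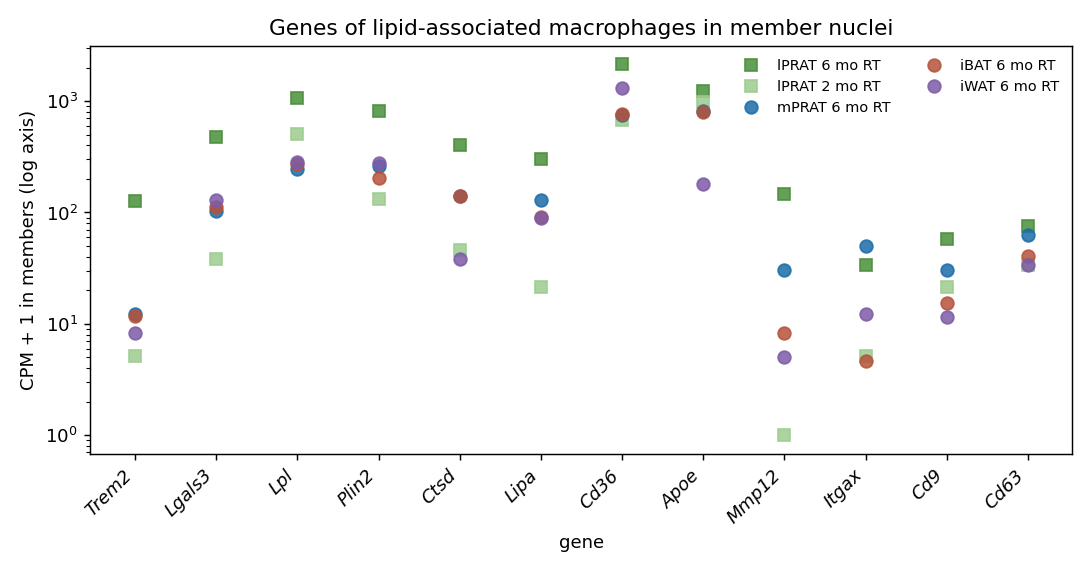
CPM + 1 in members, on a log axis, for 12 genes of lipid-associated macrophages in lPRAT at 2 and 6 months and in mPRAT, iBAT and iWAT at 6 months, 1 library per symbol, with no error bars. lPRAT at 6 months is the highest symbol for Trem2 (127 CPM), Lgals3 (480 CPM) and Lipa (303 CPM).

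Depots were compared at 6 months against iWAT at room temperature, which the 3 comparisons share. In lPRAT, 345 genes were higher and 350 lower of 7863 (8.84%), and of 1716 genes above the other kept nuclei over both libraries 13.5% were higher and 2.56% lower. Of the lipid-associated genes measured, 11 of 17 were past the fold upward against 4.39% of all genes, with a median of 1.50. It was 0.89 among members with no excluded UMI, a set that leaves out nuclei by 3 lipid-associated genes. Apoe measured 178 CPM in iWAT and 1239 CPM in lPRAT and Trem2 7.30 and 127 CPM, and Ctsd had a log2 ratio of 2.87. Complement genes followed, with 7 of 12 past the fold and a median of 1.02, C1qc measuring 89.2 and 305 CPM. Lower in lPRAT were Aff3, a nuclear factor of lymphoid cells (593 and 98.0 CPM), and the histamine receptor Hrh1 (261 and 57.9 CPM).

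In mPRAT, 153 genes were higher than in iWAT and 246 lower of 6655 (6.00%), and in iBAT 157 and 234 of 5238 (7.46%). Of genes above the other kept nuclei over both libraries, 61 were higher and 10 lower of 1249 in mPRAT, and 55 and 27 of 1209 in iBAT. Fn1 measured 36.5 CPM in iWAT, 329 CPM in mPRAT and 382 CPM in iBAT, and Lyz2 112, 439 and 641 CPM in the same order. Apoe measured 178, 814 and 799 CPM and H2-Ab1 142, 482 and 515 CPM. MHC class II genes were past the fold upward for 4 of 11 measured in mPRAT, against 2.30% of all genes, and for 4 of 9 in iBAT, against 3.00%. Resident genes in mPRAT were past it for 5 of 16, among them Cd209f (43.0 and 192 CPM) and Fcna (19.5 and 89.6 CPM), and the list median of 0.65 was -0.15 among members with no excluded UMI. The iWAT members had the higher level of Gda, guanine deaminase (931 CPM, against 367 in mPRAT and 299 in iBAT), of Rbpj (9897 and 4833 CPM in mPRAT) and of Spon1 (108 CPM, against 14.2 and 14.4). In these comparisons adipocyte markers were past the fold downward for 8 of 13 measured in mPRAT (3.70% of all genes), 4 of 13 in iBAT (4.47%) and 6 of 11 in lPRAT (4.45%), and their part was not tested. Against iBAT the iWAT members also had more Hmox1 (118 and 18.0 CPM), Slc40a1 (77.8 and 14.4 CPM), Timd4 (135 and 39.6 CPM) and Cd38, an NAD-degrading enzyme (187 and 50.4 CPM).

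By level across libraries at 6 months at room temperature, F13a1, which is part of the rule and so is a description, ordered the depots as mPRAT (3583 CPM), iWAT (3249 CPM), iBAT (3102 CPM) and lPRAT (1753 CPM). Timd4 ordered them as mPRAT (177 CPM), iWAT (135 CPM), lPRAT (69.3 CPM) and iBAT (39.6 CPM), and Lyve1 as lPRAT (117 CPM), iBAT (72.0 CPM), mPRAT (71.7 CPM) and iWAT (47.8 CPM). The 20 UMIs behind the iBAT level of Lyve1 do not separate it from mPRAT. The depot with the highest level thus differed between Timd4 and Lyve1.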

How the data were processed

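Nuclei were isolated, sorted by a DNA dye and run on a 10x 3′ v3.1 kit, per the labels' protocols. The authors' deposited files give raw UMI counts for every gene in every barcode, made with Cell Ranger 7.0.0 on mm10, the same assembly as GRCm38, per the submitters' processing notes and the file headers. No doublet removal or free RNA correction is given in the sources used here. Barcodes were kept from 300 genes upward unless mitochondrial UMIs exceeded 10%, and members' counts were summed per library and scaled to CPM. The members and gene lists were chosen with earlier results of these data known.

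With 1 library per group no test was run. A gene was past the fold at a log2 ratio of 1 or more in size, with 20 CPM added and at least 50 UMIs over both libraries. A comparison needed 50 members and 50000 UMIs in each library, which left out iBAT at 2 months. Named genes were rule genes, list genes, the 30 leading genes, and up to 8 genes per direction and comparison with at least 2 times the level of other kept nuclei in the library where they were higher. Macrod2 and the genes split by Ltbp1, Adam23 or Top2a nuclei were chosen after their values were seen. List medians needed 4 measured genes. Intervals are exact Poisson, Clopper-Pearson or conditional binomial at 95%, and a count of 0 allows 3 counts.

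Alternatives were thinning to 1000 or 500 UMIs, a rule of 5 UMIs and 3 genes, no UMI of the 12 excluding genes, removal of the highest scrublet scores (0.8% per 1000 barcodes, run in scanpy 1.11.5), an adipose denominator, no mitochondrial limit, 10 CPM added, no minimum count, TMM factors (edgeR 4.0.16, used for nothing else) and subtraction of free RNA. Leaving out each gene's 2 top members in each library and comparing iBAT at 6 and 1 months were chosen after seeing the data. Scripts ran in Python 3.11.15 and R 4.3.3. On counts simulated with Poisson error for the 3 cold comparisons, 19% to 30% of 2-fold genes and 92% to 98% of 4-fold genes passed. Of unchanged genes at most 0.166% did. Spread between nuclei or animals was not simulated, so these figures do not cover it. Gene positions are from GENCODE M21 and promoters from RefSeq.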

Additional observations from a re-analysis of the deposited data

Results flagged for a closer look

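Several results pointed in opposite directions in different depots after cold, and none of these differences was tested, since each depot has 1 library per temperature. The interferon list had a median log2 ratio of 0.5795 in mPRAT, 1.408 in iBAT and -0.3455 in iWAT. Cadm1, an adhesion molecule, had log2 ratios of -1.508 in mPRAT, 1.163 in iBAT and -3.044 in iWAT, and 84 of 313 members carried it in cold iBAT. Fn1 had 1.07 in mPRAT and -1.368 in iBAT, and -0.2568 in iBAT under the rule of 5 UMIs and 3 genes, so that the iBAT value was no longer past the fold. In cold mPRAT 20 members held 68.0% of its UMIs.

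Cdk8, a kinase of the Mediator complex, had log2 ratios of -1.02 in mPRAT, -2.172 in iBAT and 1.501 in iWAT, and Lars2, a mitochondrial leucyl-tRNA synthetase, had -2.068 in iBAT and 1.267 in iWAT. The other kept nuclei moved the same way for both genes in iWAT, where Lars2 went from 428 to 843 CPM and Cdk8 from 420 to 752 CPM. Lars2 in the other kept nuclei of iBAT went from 1150 to 332 CPM. Mamdc2 had -1.111 in mPRAT and 1.551 in iWAT. Sdk1, an adhesion molecule, had 2.399 in iBAT, where 25 members carried it in cold, and -1.295 in iWAT. Kcnq5, a potassium channel gene, had -2.662 in mPRAT and 2.561 in iBAT, where 2 members held 96.3% of its cold UMIs. Without the 2 top members the iBAT value was 0.2407, which is not past the fold.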

How the results depend on the processing

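No paired analysis was possible because each group has 1 library, and for the same reason no replicate could be left out. Of 42 ratios of member shares under alternatives, 24 stayed within the counting interval. With no excluded UMI the cold ratio was 3.018 in mPRAT, 1.121 in iBAT and 2.424 in iWAT, and the ratio of 6 over 2 months 1.071 in mPRAT and 1.022 in lPRAT. Thinning to 1000 UMIs gave cold ratios of 3.756 in iBAT and 1.179 in iWAT and age ratios of 2.343 in mPRAT and 2.372 in lPRAT, and thinning to 500 UMIs gave 1.681 in cold iWAT and 1.497 in lPRAT. The rule of 5 UMIs and 3 genes gave age ratios of 2.178 in mPRAT and 2.551 in lPRAT. The adipose denominator gave 1.162 for cold in mPRAT, and 2.415 in mPRAT and 1.29 in lPRAT for age. Without the mitochondrial limit the cold mPRAT ratio turned to 0.8853 and the lPRAT age ratio was 1.721.

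Counts of genes past the fold stayed within 1.5 times in 53 of 72 cases. With no excluded UMI, where fewer nuclei enter, they were 85, 92 and 86 for cold in mPRAT, iBAT and iWAT (213, 225 and 229 as reported), 132 and 299 for 6 over 2 months in mPRAT and lPRAT (321 and 887), 122, 130 and 288 for mPRAT, iBAT and lPRAT over iWAT (399, 391 and 695) and 73 for 6 over 1 months in iBAT (164). With no minimum count they were 404 and 416 for cold in mPRAT and iBAT, 654 for age in mPRAT, 606 for iBAT over iWAT and 1177 for age in iBAT. Free RNA subtraction gave 428 for cold iBAT, 529 for age in mPRAT and 317 for age in iBAT. Without each gene's 2 top members in each library they were 591 in mPRAT and 1409 in lPRAT for age. That step can take a larger share of a gene's UMIs from its sparser library, which raises ratios. Over the 9 comparisons 79.3% to 92.4% of the genes past the fold were past it in both. Il1rapl2 in cold mPRAT turned to -0.5752 with no excluded UMI and -0.3055 without its top members. Ttn in iBAT over iWAT turned to 0.2057 under the rule of 5 UMIs and 3 genes and 0.4174 with no excluded UMI. Of 143 log2 ratios of named genes, 24 were under 2-fold with no excluded UMI, 15 without the top members, 10 under the rule of 5 UMIs and 3 genes, 3 with doublet scores removed and 0 under the other 4 alternatives. List medians moved in 28 of 1108 cases. The cause of these moves was not tested. Depth limits iBAT at 1 and 2 months most, where 1 UMI is worth 8.95 and 20.1 CPM.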

Other observations

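Growth factors and other signals that members carry were described across libraries. Pdgfc, a platelet-derived growth factor, measured 180 CPM at room temperature and 575 CPM in cold in iBAT, and was the 1 gene of 8 measured in its list past the fold upward there, against 3.15% of all genes. In iWAT it measured 485 and 842 CPM and in mPRAT 403 and 679 CPM, below the fold in both. Igf1, an insulin-like growth factor, lay between 101 CPM in iBAT at 2 months and 569 CPM in cold iWAT, and other kept nuclei of iWAT also carried 428 to 596 CPM. Grn, progranulin, and Apoe were past the fold upward in mPRAT, iBAT and lPRAT over iWAT, which share the iWAT library. The cytokine genes Tnf, Il1b and Il10 were at or below 10.9, 5.89 and 24.6 CPM in each library.

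Genes of iron handling and of noradrenaline handling were sparse or uneven. Of the iron list, Slc40a1 and Ftl1 were past the fold upward in cold iBAT (2 of 10 measured, against 3.15% of all genes). In lPRAT at 6 over 2 months 5 of 13 were, against 9.21%, among them Fth1 and Slc11a1. Slc6a2, the noradrenaline transporter, had 1 UMI in members of all 12 libraries together. Maoa, which degrades noradrenaline, measured 0 to 81.1 CPM, highest in cold iWAT. Of the 19-gene list of phagocytosis, 6 of 17 measured in lPRAT at 6 over 2 months were past the fold upward, against 9.21% of all genes, Axl, a receptor for dying cells, going from 24.6 to 151 CPM. After cold 0 of 16 in iBAT and 0 of 18 in iWAT passed upward, against 3.15% and 0.598% of all genes, and of 17 in mPRAT Itgam passed upward, against 1.88%, and Pecam1 downward, against 2.05%.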
